A study of Mus musculus with 24 samples.

Results

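The transcriptional response to a heat shock (HS) was measured in quadriceps muscle from wild type animals, as the comparison of 2 HS-treated mice with 2 control mice. These 4 libraries were taken, by genotype and treatment label, from a series of 24 libraries that also covers R6/2 mice, a transgenic model of Huntington's disease, and Hsf1-/- mice, which lack heat shock factor 1, as well as mice given the HSP90 inhibitor HSP990 or its vehicle. All 4 mice were 12 weeks old and of the CBA x C57BL/6 F1 background. HS-treated mice were warmed on a pad, with the head left out and under isoflurane, for 5 to 6 min until the core reached 41.5 °C, and were kept there for 15 min. Control mice were anaesthetised in the same way and kept at 36.9 °C for 21 min, so both groups share the anaesthesia and the handling. Muscle was taken 4 h later and polyA RNA was sequenced. The libraries held 24062246 to 33192334 counts, and 13754 genes had at least 2 counts in at least 10 of the 24 libraries and were tested. Levels are given as CPM, the counts of a gene relative to the TMM-scaled library total, and changes as log2 fold changes of HS over control. A gene is called when its p from the quasi-likelihood test of edgeR, adjusted over all genes tested by Benjamini-Hochberg, is below 0.05, and every adjusted p below is from that test. This test borrows the spread from all 12 groups of the series, since permuting 4 mice exactly, 2 a group, gives no two-sided p smaller than 0.333.

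Cells that are heated unfold part of their proteins, and heat shock factor 1 (HSF1) then binds arrays of short inverted repeats, the heat shock elements, in front of genes for molecular chaperones. Chaperones of the HSP70 and HSP90 families bind unfolded proteins and work with co-chaperones: DNAJ proteins deliver clients to HSP70, nucleotide exchange factors release them, and proteins such as STIP1 pass them on to HSP90. Skeletal muscle relies on this system for the folding of myosin and for the upkeep of the sarcomere. A heated animal also mounts a systemic stress response with glucocorticoids and catecholamines, hormones that act on muscle through other transcription factors.

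The stretches in front of chaperone genes are shown first because chaperone genes include several of the largest changes. A heat shock element was searched for as 3 alternating units 2 bases apart, GAANNTTCNNGAA or, on the other strand, TTCNNGAANNTTC, in windows of 300 bases that reach from 250 bases before each start site to 50 after it (RefSeq, GRCm38.p6). An exact match was present in 0.603% of the 32851 windows, and a match with at most 1 of the 9 fixed letters different, a looser form chosen after the data were seen, in 7.22%. Of the 21 called genes of 6 chaperone lists described later, 18 had a window, of which 3 held an exact match and 12 (66.7%) a match of the looser form. Of the 73 genes of these lists that were not called, 60 had a window, with 2 exact matches and 10 (16.7%) looser ones. Among the 16 called genes of a list of glucocorticoid receptor targets, 15 had a window and 0 held either form. A gene with several start sites was counted when any of its windows held a match, whereas the shares over all windows are per window. These are counts of letters and were not tested. The 200 bases before a start site of 6 called genes, each with a match, are printed below, with matches of the looser form in capitals. These 6 are not simply the largest rises. Bag3, Dnajb1 and Hspa1l rose more than Hspe1, by 2.19, 2.18 and 2.02 on the log2 scale against 1.34. Their windows hold 0 matches and are not printed. Hsph1 (1.74), named after its values were seen, holds matches and is not printed either. Dnaja1 has 3 start sites in the table and Dnaja4 has 2. For each the one with a match is printed, and the others, 2 for Dnaja1 and 1 for Dnaja4, hold 0 matches. Hspa1b lies at chr17:34959239-34959438 and Hspa1a at chr17:34972157-34972356 (both minus strand), Dnaja1 at chr4:40722268-40722467 (plus), Dnaja4 at chr9:54699359-54699558 (plus), Hspe1 at chr1:55087948-55088147 (plus) and Hspb1 at chr5:135887719-135887918 (plus).
Hspa1b: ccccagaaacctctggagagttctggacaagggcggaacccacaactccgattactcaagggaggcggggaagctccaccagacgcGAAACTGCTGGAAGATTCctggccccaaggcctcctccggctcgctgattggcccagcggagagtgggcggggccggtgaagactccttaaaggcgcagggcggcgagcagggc
Hspa1a: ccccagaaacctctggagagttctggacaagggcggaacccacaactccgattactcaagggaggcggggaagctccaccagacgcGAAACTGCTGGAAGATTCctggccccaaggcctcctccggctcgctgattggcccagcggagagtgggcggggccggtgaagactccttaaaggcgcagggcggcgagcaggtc
Dnaja1: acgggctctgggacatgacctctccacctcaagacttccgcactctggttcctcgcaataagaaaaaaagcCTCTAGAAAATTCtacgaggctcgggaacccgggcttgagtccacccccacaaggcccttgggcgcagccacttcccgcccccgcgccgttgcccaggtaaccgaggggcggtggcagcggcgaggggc
Dnaja4: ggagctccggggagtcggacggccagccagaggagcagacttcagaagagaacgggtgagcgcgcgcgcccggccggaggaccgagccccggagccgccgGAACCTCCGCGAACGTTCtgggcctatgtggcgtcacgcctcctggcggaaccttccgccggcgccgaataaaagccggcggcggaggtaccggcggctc
Hspe1: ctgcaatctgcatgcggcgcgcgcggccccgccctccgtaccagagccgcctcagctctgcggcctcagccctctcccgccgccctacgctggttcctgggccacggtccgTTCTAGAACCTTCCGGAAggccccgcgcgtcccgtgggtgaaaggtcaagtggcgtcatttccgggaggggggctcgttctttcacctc
Hspb1: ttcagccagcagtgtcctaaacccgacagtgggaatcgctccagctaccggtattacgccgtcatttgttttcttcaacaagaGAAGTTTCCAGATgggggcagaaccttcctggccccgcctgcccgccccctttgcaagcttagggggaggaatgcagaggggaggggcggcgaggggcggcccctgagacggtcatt

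In the Hspa1b and Hspa1a windows the capitals cover 2 overlapping matches at the same distance from the start, and the surrounding bases are nearly the same in both genes. The Hspe1 stretch holds 2 exact matches, which start 89 and 84 bases before its start site. It is shared with Hspd1, which is transcribed in the opposite direction from the same stretch.

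HS changed the levels of 283 genes (2.06% of those tested), of which 219 rose (1.59%) and 64 fell (0.465%). Rises were also larger: 174 of the rising genes changed more than 2-fold, 62 more than 4-fold and 27 more than 8-fold, while 37 falling genes changed more than 2-fold and 5 more than 4-fold. The median log2 fold change was 1.51 over the rising genes, -1.12 over the falling genes and -0.014 over all genes tested. In all 283 genes both HS-treated mice lay on the same side of both control mice, as did 47.6% of all genes tested. With 1 of the 4 mice left out, the count fell to between 40 (without control replicate 1) and 123 (without HS replicate 1), and it was 64 without control replicate 2 and 93 without HS replicate 2. A set of 35 genes was called in each of these 4 fits, 34 higher and 1 lower, and 14 of them belong to the chaperone lists. When libraries were scaled by their total counts, without TMM, the calls split into 161 rises and 155 falls around a median of -0.15 over all genes, so the number of small falls depends on the scaling.

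**Figure D1:**
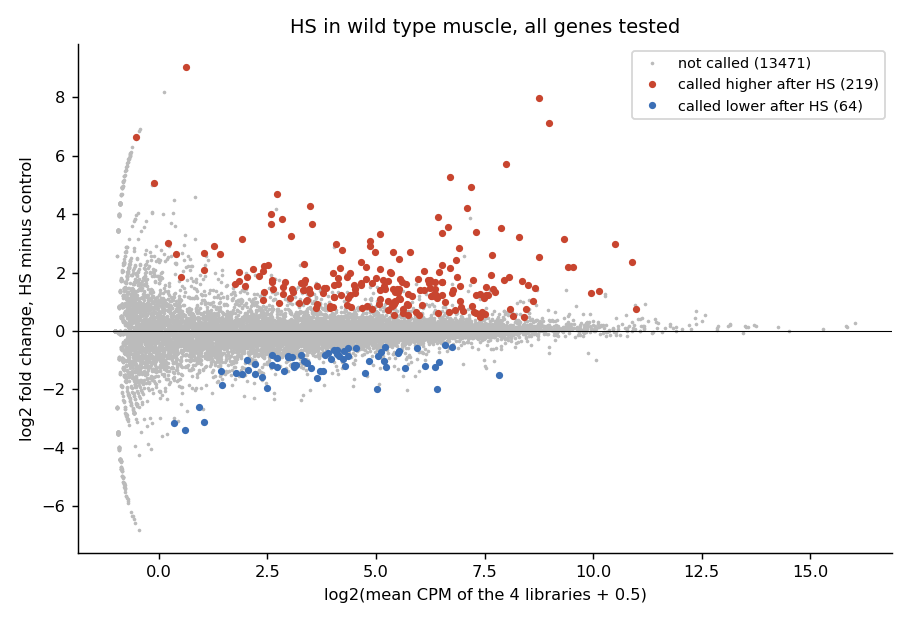
Each point is 1 of the 13754 genes tested in wild type muscle. The horizontal axis is log2 of the mean CPM of the 4 libraries plus 0.5 and the vertical axis the log2 fold change of HS over control. The 219 genes called higher extend to 7.97 (Hspa1b) and the 64 called lower to -3.40 (Fam167a), apart from Foxf1, at 0 counts in both controls, whose fitted value of 9.04 depends on the prior count.

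In the HSP70 machinery the inducible genes rose and most other members were not called. Of 25 genes of the HSP70 family and its nucleotide exchange factors, 7 rose (28.0%) and 0 fell, with a median log2 fold change of 0.15 over the list. Hspa1b and Hspa1a encode the stress-inducible HSP70. Hspa1b stood at 1.84 and 4.89 CPM in the control mice and at 853 and 858 CPM in the HS-treated mice. Hspa1a stood at 3.37 and 11.1 CPM in controls and at 961 and 1063 CPM after HS. The transcripts of these 2 genes are near-identical, so reads may have been shared between them and the split of counts between the 2 is uncertain. Hspa1a also overlaps an antisense gene over 18.9% of its exon bases. Hspa1l, their neighbour, whose exons overlap an antisense gene over 72.0% of their length, rose from 29.7 and 38.7 CPM to 138 and 139 CPM (log2 fold change 2.02 ± 0.214 SE, adjusted p = 4.9e-05). The cochaperone Bag3, which releases clients from HSP70 and directs damaged muscle proteins to autophagy, was already abundant, with 214.5 and 278 CPM in controls, and reached 1074 and 1178 CPM (log2 fold change 2.19 ± 0.177, adjusted p = 2.7e-06). The HSP110 genes Hsph1 and Hspa4l and the co-chaperone St13, named after their values were seen, rose by 1.74, 1.31 and 0.70 on the log2 scale. Hspa1l and Bag3 were called in each fit with 1 mouse left out. Hspa8, the constitutive HSP70, also named after its values were seen, stood at 32.5 and 42.5 CPM in controls and 221 and 225 CPM after HS. It missed the threshold (log2 fold change 2.57 ± 0.854, adjusted p = 0.16). The endoplasmic reticulum member Hspa5 missed it too, with a log2 fold change of 0.33 and an adjusted p of 0.40.

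Among 12 measured DNAJ proteins of the A and B classes, which bring clients to HSP70, 3 rose, 0 fell and all 12 had a positive log2 fold change, with a median of 0.57. Dnaja1 rose from 4.45 and 4.78 CPM in controls to 29.1 and 34.3 CPM (log2 fold change 2.78 ± 0.188, adjusted p = 4e-07). Dnaja4 rose from 109 and 145 CPM to 799 and 664 CPM (2.53 ± 0.313, adjusted p = 0.00029). Exons of Dnaja4 overlap Wdr61 on the opposite strand over 44.1% of their bases. For Dnajb1 the 2 HS-treated mice differed, with 25.6 and 61.9 CPM against 11.2 and 8.17 CPM in controls, but the groups did not overlap and the gene was called (2.18 ± 0.312, adjusted p = 0.0011). Of 6 small heat shock proteins, 1 rose. Hspb1, which binds unfolded proteins and actin filaments, went from 24.0 and 34.8 CPM to 214 and 209 CPM (2.84 ± 0.416, adjusted p = 0.0013), and without control replicate 1 its adjusted p was 0.063.

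The HSP90 system rose in the inducible chaperone and in several co-chaperones. Of 23 genes of the HSP90 family and its co-chaperones all 23 had a positive log2 fold change, 8 rose (34.8%), 0 fell, and the median was 0.30. The inducible Hsp90aa1 went from 10.3 and 11.2 CPM to 156 and 164 CPM. The constitutive Hsp90ab1 went from 1437 and 1571 CPM to 2537 and 2556 CPM, a log2 fold change of 0.76 ± 0.138 (adjusted p = 0.0071, and up to 0.14 with 1 mouse left out, the calls being lost without either control mouse or HS replicate 2). Unc45b, the chaperone that folds the myosin head in striated muscle together with HSP90, rose from 575 and 562 CPM to 1425 and 1370 CPM (log2 fold change 1.30 ± 0.13, adjusted p = 2.6e-05). Stip1, which bridges HSP70 and HSP90, rose from 115 and 126 CPM to 335 and 274 CPM (1.34 ± 0.133, adjusted p = 2.6e-05). Ahsa2, an activator of the HSP90 ATPase, rose by 1.24 (adjusted p = 0.00039). The 2 mitochondrial chaperonin genes both rose. Hspd1 rose from 98.7 and 89.3 CPM to 221 and 221 CPM (1.24 ± 0.123, adjusted p = 2.6e-05) and Hspe1 from 26.5 and 24.4 CPM to 61.3 and 68.0 CPM (1.34 ± 0.191, adjusted p = 0.0011). The other 16 mitochondrial chaperones and proteases were not called. Hsp90aa1, Hspb1, Hspd1 and Hspe1 each have a near-identical copy elsewhere in the genome to which reads could have been assigned. Ahsa2, whose exon bases overlap a gene on the opposite strand over 29.1%, is uncertain as well if strand was ignored in counting.

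Other branches of protein quality control had few or no calls. Over all 13754 genes tested edgeR called 2.06%, and lists of these sizes can hold few or no calls at that share. An unadjusted p below 0.05 was reached by 1627 of all genes tested, and DESeq2 called 542. By edgeR 0 of 15 subunits of the cytosolic chaperonin CCT and prefoldin were called, although 14 had a positive log2 fold change (median 0.17), 4 had an unadjusted p below 0.05 and DESeq2 called 1. Of 35 proteasome subunits edgeR and DESeq2 each called 0 (median 0.08, 2 at an unadjusted p below 0.05). Of 10 ubiquitin genes and shuttle factors edgeR called 0 and DESeq2 called 2 (median 0.34, 4 unadjusted). Of 30 autophagy and lysosome genes edgeR called 0 and DESeq2 called 1 (median 0.09, 2 unadjusted). Among 23 genes of endoplasmic reticulum folding and the unfolded protein response, the 1 call was Serpinh1, the collagen chaperone HSP47, which rose from 112 and 123 CPM to 382 and 457 CPM (log2 fold change 1.83 ± 0.273, adjusted p = 0.0015, and 0.056 without control replicate 1). The heat shock factors themselves were not called: Hsf1 stood at 60.8 and 63.9 CPM in controls and 64.9 and 68.5 CPM after HS, and Hsf2 at 17.7 and 21.8 CPM and 19.2 and 18.3 CPM.

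**Figure D2:**
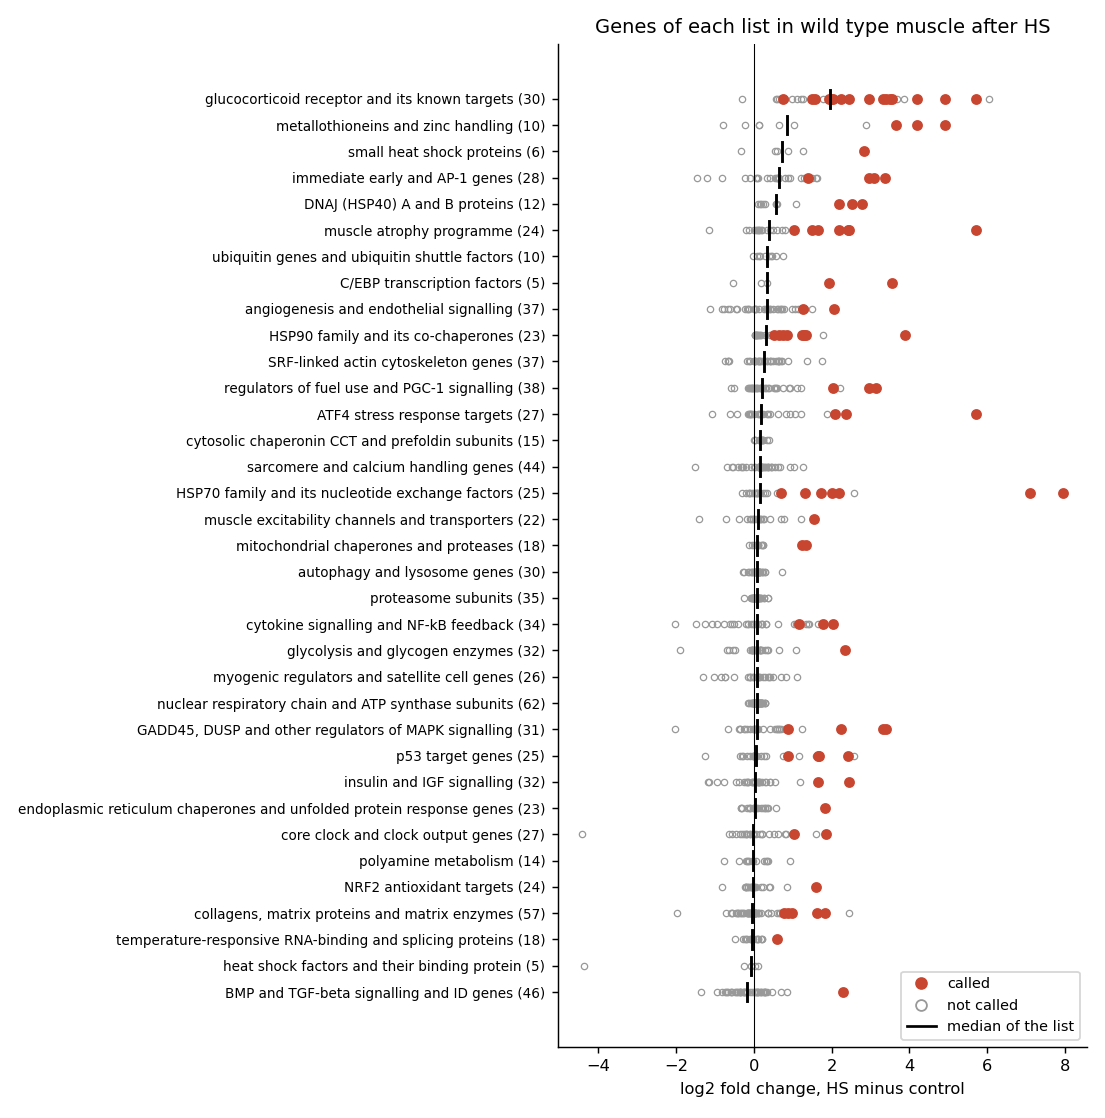
Log2 fold changes of HS over control for the genes of 35 lists, with the number tested in brackets, filled points for called genes, open points for others and a bar for the median. The list of glucocorticoid receptor targets has the highest median, 1.96, while the respiratory chain and proteasome lists are centred near 0. All lists were chosen with earlier results of these data known, so this ranking is descriptive.

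Many known targets of the glucocorticoid receptor rose. The list of them was chosen with earlier results of these data known, so its counts are descriptive. In this list of 30 genes, the receptor included, of which 18 also belong to other lists, 16 genes rose (53.3%), 0 fell and 29 had a positive log2 fold change, with a median of 1.96 against -0.014 over all genes. Among its members Ddit4, which restrains mTORC1, had the largest called change. It stood at 8.14 and 10.9 CPM in controls and at 505 and 492 CPM after HS (log2 fold change 5.71 ± 0.969, adjusted p = 0.0047). Cebpd, a transcription factor of the acute response, rose from 15.1 and 16.6 CPM to 224 and 148 CPM (3.55 ± 0.575, adjusted p = 0.0032), and its relative Cebpb from 97.6 and 69.0 CPM to 303 and 330 CPM (1.93 ± 0.203, adjusted p = 4.8e-05). The 2 metallothioneins, small proteins that bind zinc and copper, both rose. Mt2 went from 8.05 and 10.3 CPM to 231 and 330 CPM (4.93 ± 1.00, adjusted p = 0.014) and Mt1 from 12.7 and 15.7 CPM to 237 and 284 CPM (4.20 ± 0.75, adjusted p = 0.0064). The zinc exporter Slc30a2 rose from 0.809 and 0.784 CPM to 10.1 and 10.2 CPM (3.67 ± 0.814, adjusted p = 0.025, between 0.077 and 0.23 with each of the 4 mice left out), while the metal-responsive factor Mtf1, named after its values were seen, was not called (log2 fold change of 0.14). Many tissues induce Fkbp5 and Per1 with glucocorticoids, but both missed the threshold. Fkbp5 stood at 114 and 122 CPM in controls and at 404 and 405 CPM after HS (adjusted p = 0.21). Per1 stood at 71.5 and 70.2 CPM in controls and at 189 and 237 CPM after HS (adjusted p = 0.054). The calls of this list depend on the replicates: 2 of its genes were called without control replicate 1, 4 without control replicate 2 and 10 without either HS mouse, and 22 were called by DESeq2. Cebpb and Errfi1 were called in each of these 4 fits. Without control replicate 1 the adjusted p was 0.12 for Ddit4, 0.093 for Cebpd, 0.20 for Mt2 and 0.14 for Mt1.

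Of the genes that regulate fuel use 3 rose, while the respiratory chain had no call. Pdk4, the kinase that shuts off pyruvate dehydrogenase, went from 278 and 378 CPM to 3267 and 1892 CPM (log2 fold change 2.98 ± 0.448, adjusted p = 0.0017). Ucp3, a mitochondrial carrier linked to fatty acid use in muscle, went from 125 and 136 CPM to 1221 and 1097 CPM (3.15 ± 0.455, adjusted p = 0.0012). Ppargc1a, which encodes the coactivator PGC-1 alpha, went from 24.4 and 28.9 CPM to 98.5 and 122 CPM (2.05 ± 0.406, adjusted p = 0.013). These were the 3 called genes of 38 regulators of fuel use, whose median log2 fold change was 0.22. Without control replicate 1 none of the 3 was called, with adjusted p of 0.077 for Pdk4, 0.052 for Ucp3 and 0.18 for Ppargc1a, which also lost the call without control replicate 2 (0.11) and without HS replicate 2 (0.10). Ppp1r3c, which targets a phosphatase to glycogen and favours its synthesis, was the 1 gene called among 32 of glycolysis and glycogen metabolism, from 464 and 787 CPM to 3387 and 3000 CPM (2.35 ± 0.452, adjusted p = 0.010, with the call lost without control replicate 1 at 0.19, control replicate 2 at 0.057 and HS replicate 1 at 0.055). Of 62 nuclear subunits of the respiratory chain and ATP synthase edgeR and DESeq2 each called 0 (median 0.07, 1 at an unadjusted p below 0.05). The share that edgeR called over all genes tested was 2.06%, at which such a list can hold 0 calls. Of all 13754 genes tested 1627 had an unadjusted p below 0.05, and DESeq2 called 542.

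Of 24 genes of the muscle atrophy programme 7 rose (29.2%) and 0 fell. The ubiquitin ligase Trim63 (MuRF1), which marks sarcomere proteins for breakdown, went from 236 and 303 CPM to 1520 and 928 CPM (log2 fold change 2.18 ± 0.354, adjusted p = 0.0032), but its usual partner Fbxo32 (atrogin-1) was not called, with 268 and 283 CPM in controls and 403 and 300 CPM after HS (0.35 ± 0.316, adjusted p = 0.76). Foxo1, a transcription factor upstream of both ligases, went from 12.7 and 15.5 CPM to 79.0 and 76.4 CPM (2.46 ± 0.536, adjusted p = 0.022). Cdkn1a, the cell cycle inhibitor p21, went from 30.3 and 41.5 CPM to 163 and 225 CPM (2.43 ± 0.574, adjusted p = 0.035), and among 25 p53 targets it rose together with Trp53inp1 (1.69), Sesn1 (1.65) and Gadd45a (0.87). Mdm2, which was named after its values were seen and which p53 activates in most cells, had a log2 fold change of 0.05. In each of the 4 fits with a mouse left out Foxo1, Cdkn1a, Trp53inp1, Sesn1 and Gadd45a lost their call, the highest adjusted p being 0.25 for Foxo1 and 0.33 for Cdkn1a, both without control replicate 1. Trim63 lost it without control replicate 1 (0.097), when 0 genes of the atrophy list were called, and 1 was called without control replicate 2.

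Immediate early and signalling genes changed in part. For the lists below, the share called over all genes tested was 2.06%. Of 28 immediate early and AP-1 genes 4 rose (14.3%) and 0 fell: Zfp36, which destabilises cytokine mRNAs, went from 13.2 and 19.1 CPM to 157 and 176 CPM (log2 fold change 3.36 ± 0.572, adjusted p = 0.0047), the nuclear receptor Nr4a3 from 4.36 and 7.54 CPM to 45.1 and 56.9 CPM (3.09 ± 0.588, adjusted p = 0.010), and the small MAF factors Maff and Mafk by 2.97 and 1.39. All 4 lost the call without control replicate 1, with adjusted p from 0.11 for Maff to 0.21 for Mafk. The classic members were not called. Fos stood at 3.37 and 41.2 CPM in the control mice and 6.04 and 10.4 CPM after HS, Egr1 at 5.62 and 22.9 CPM and 13.2 and 13.6 CPM, and Atf3 at 17.3 and 59.3 CPM and 105 and 71.3 CPM. Control replicate 2 thus had the higher level of all 3 genes among the controls, and for Fos and Egr1 it was the highest of the 4 mice. Gadd45g and Map3k6, regulators of p38 and JNK signalling, rose by 3.40 and 3.33 (adjusted p of 0.14 and 0.22 without control replicate 1), and Errfi1, a feedback inhibitor of the EGF receptor, by 2.25 (adjusted p = 0.00042). Nfkbia, which encodes the inhibitor that holds NF-kB in the cytoplasm, went from 12.5 and 18.3 CPM to 61.8 and 64.4 CPM (2.03 ± 0.403, adjusted p = 0.013, between 0.055 and 0.20 with each mouse left out). The heme oxygenase gene Hmox1 rose 3.01-fold (log2 fold change 1.59 ± 0.236, adjusted p = 0.0015). It was the 1 call among 24 antioxidant targets of NRF2, and a list of this size can hold 1 call at 2.06%. Of 27 targets of ATF4 3 rose, Ddit4, Stc2 and Slc7a5, while Atf4 (-0.10) and Ddit3, the proapoptotic factor CHOP, were not called. Ddit3 stood at 21.7 and 21.7 CPM in controls and 10.9 and 9.65 CPM after HS (-1.08 ± 0.405, adjusted p = 0.24).

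**Figure D3:**
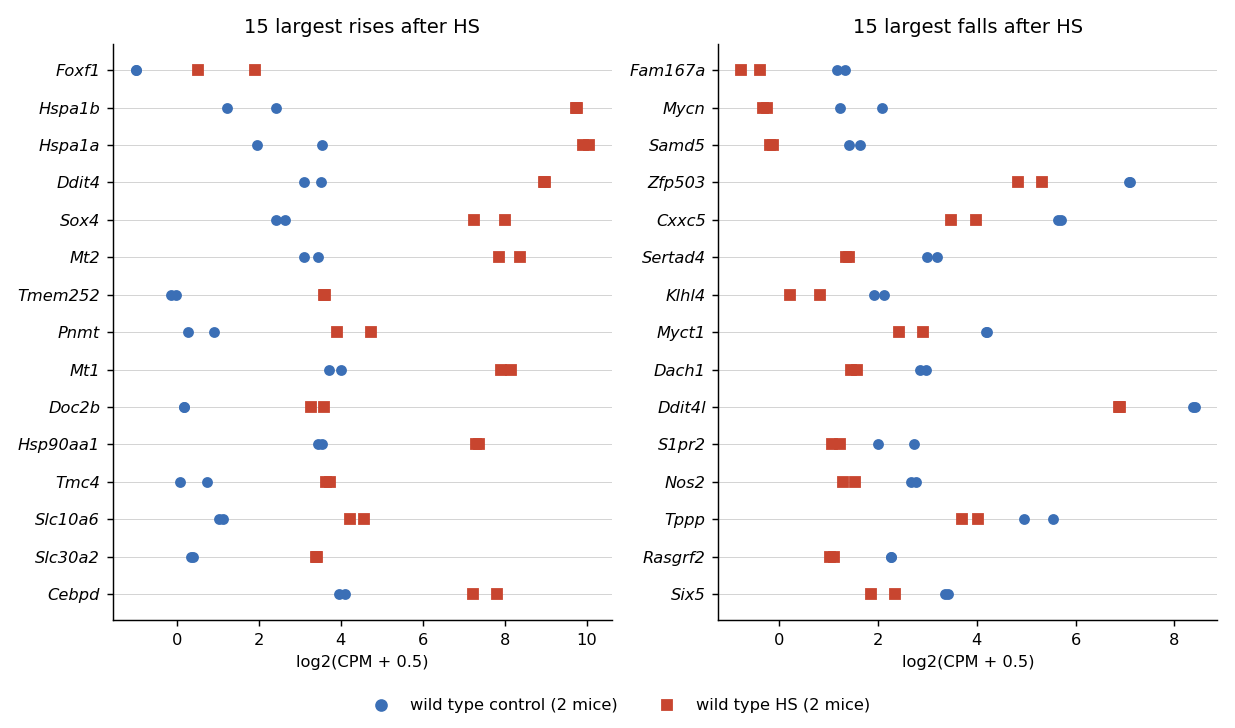
Levels in each of the 4 mice, as log2 of CPM plus 0.5, for the 15 largest rises (left) and the 15 largest falls (right) among called genes with a mean of at least 1 CPM. The groups do not overlap for any of the 30 genes, which the choice of genes requires.

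Several of the largest rises belonged to none of these groups. Foxf1, a forkhead factor of mesenchymal and endothelial cells, had 0 counts in both controls and 25 and 79 counts in the HS-treated mice, at least 17.2-fold higher against a floor of 3 counts per control library. Sox4, a transcription factor of progenitor cells, went from 4.81 and 5.75 CPM to 256 and 152 CPM (log2 fold change 5.27 ± 0.62, adjusted p = 0.00017). Its call was kept in each fit with 1 mouse left out. Pnmt, the enzyme that makes adrenaline from noradrenaline, went from 1.39 and 0.709 CPM to 14.6 and 26.2 CPM (4.29 ± 1.05, adjusted p = 0.043, and 0.32 without control replicate 2). Tmem252 rose by 4.69, Doc2b, a calcium sensor for exocytosis, by 4.02, Tmc4 by 3.85 and the steroid sulfate transporter Slc10a6 by 3.68. Of these 4 genes Tmc4 was called in each fit with 1 mouse left out, while without control replicate 1 the adjusted p was 0.15 for Tmem252, 0.28 for Doc2b and 0.25 for Slc10a6. Foxf1 had an adjusted p of up to 0.15 in these fits. In the matrix, 5 of 57 genes rose and 0 fell, against 2.06% called over all genes tested, while the median of the list was -0.04. Among the 5 were the prolyl hydroxylases P4ha1 and P4ha2, which prepare collagen for folding (0.87 and 0.98). Both lost the call without control replicate 1.

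The named falls included regulators of growth and of signalling. Mycn, a growth-promoting transcription factor, fell from 1.84 and 3.70 CPM to 0.336 and 0.291 CPM (log2 fold change -3.13 ± 0.58, adjusted p = 0.0082). Zfp503, a transcriptional repressor, fell from 136 and 135 CPM to 39.7 and 28.0 CPM (adjusted p = 0.016), and Cxxc5, which restrains WNT signalling, from 49.2 and 52.0 CPM to 10.6 and 15.3 CPM (-1.97 ± 0.286, adjusted p = 0.0013). Ddit4l, the paralogue of Ddit4, fell from 341 and 333 CPM to 118 and 119 CPM (-1.51 ± 0.27, adjusted p = 0.0064) while Ddit4 rose, so the 2 inhibitors of mTORC1 moved in opposite directions. Nos2, the inducible nitric oxide synthase (-1.48), S1pr2, a receptor for sphingosine-1-phosphate (-1.49), and Six5, a homeobox factor of muscle (-1.38), fell too, whereas S1pr1, another receptor of that lipid, rose by 1.27 (adjusted p = 0.023, between 0.10 and 0.19 with each mouse left out). Of the 15 largest falls Cxxc5 was called in each fit with 1 mouse left out. Of the other 14, Mycn and Klhl4 were called in 1 of the 4 fits and 12 in 0 of them. Their highest adjusted p in these fits ran from 0.079 for Ddit4l to 0.41 for S1pr2, which reached it without control replicate 2. It was 0.11 for Mycn (without control replicate 2), 0.21 for Zfp503 and 0.30 for Nos2 (both without HS replicate 2) and 0.30 for Six5 (without HS replicate 1).

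Genes of muscle identity had no call by edgeR, which called 2.06% of all genes tested. Lists of these sizes can hold 0 calls at that share. Among all 13754 genes tested 1627 had an unadjusted p below 0.05, and DESeq2 called 542. By edgeR 0 of 44 sarcomere and calcium handling genes were called (median 0.17, 2 at an unadjusted p below 0.05, 1 by DESeq2), 0 of 26 myogenic regulators (median 0.08, 6 unadjusted, 1 by DESeq2) and 0 of 37 actin cytoskeleton genes (median 0.25, 11 unadjusted, 2 by DESeq2). Of 37 genes of angiogenesis and endothelial signalling edgeR called 2, Ednrb and S1pr1, both higher, and DESeq2 called 7 higher and 0 lower. Of 46 genes of BMP and TGF-beta signalling edgeR called 1, Inhbb (log2 fold change 2.28), and DESeq2 called 2 higher and 2 lower, while the median was -0.18. Ednrb and Inhbb were called in 1 of the 4 fits with a mouse left out, and without control replicate 1, control replicate 2 and HS replicate 2 the adjusted p was 0.25, 0.19 and 0.26 for Ednrb and 0.18, 0.26 and 0.33 for Inhbb. Marker genes were used to look at the make-up of the samples, since in bulk muscle fewer cells of a type and less RNA per cell cannot be told apart. Summed markers of muscle fibres took 247700 and 265500 CPM in controls and 303200 and 272600 CPM after HS. Endothelial markers summed to 519 and 552 CPM and to 579 and 589 CPM, and macrophage markers to 106 and 128 CPM and to 113 and 116 CPM. All 10 adipocyte markers had a negative log2 fold change (median -0.78) and 0 were called, and their sums overlapped, with 5970 and 4189 CPM in controls and 4017 and 5160 CPM after HS. Neutrophil markers were near the floor but higher in both HS-treated mice, at 6.56 and 5.20 CPM against 1.03 and 1.49 CPM, with 7 of 7 tested genes positive and 0 called by edgeR. Erythroid markers were also higher in both HS-treated mice, at 37.6 and 76.5 CPM against 23.2 and 31.1 CPM, with 4 of 5 tested genes positive (median 1.10) and 0 called by edgeR. In the satellite cell list Sdc4 was called. Whether cell composition has a part in the changes above was not tested.

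The response was compared with that of 2 HS-treated and 2 control Hsf1-/- mice of the same background, to ask which changes differ where HSF1 is missing. The Hsf1 transcript stood at 23.1 to 29.0 CPM in the 4 Hsf1-/- libraries and at 60.8 to 68.5 CPM in the 4 wild type libraries, so counts remained on it, and whether they lie in the deleted part was not examined. Hsf1-/- mice were 10 weeks old, and 4 Y-linked genes had 4781 to 5365 counts in each of their libraries and 0 in each wild type library. Genotype, age and this difference cannot be told apart in this comparison. The test of the difference between the 2 responses called 22 genes (0.16%), and all 22 rose more in wild type mice. They comprised 14 of the 94 genes in the chaperone lists. For Hspa1b the 2 Hsf1-/- control mice had 1.27 and 1.18 CPM and the HS-treated ones 1.21 and 0.914 CPM, which gave a log2 difference of 8.18 ± 0.902 (adjusted p = 0.00036). For Hsp90aa1 the 4 values were 8.20 and 8.65 CPM and 10.0 and 8.07 CPM (difference 3.79 ± 0.354, adjusted p = 5.2e-05), for Dnaja1 2.27 and 2.17 CPM and 1.79 and 1.83 CPM (3.08 ± 0.278, adjusted p = 5.2e-05), and for Bag3 207 and 205 CPM and 256 and 227 CPM (1.96 ± 0.242, adjusted p = 0.00081). Over all 94 chaperone genes tested the median log2 fold change was 0.21 in wild type and 0.00 in Hsf1-/- mice, and over the 21 called in, and thus chosen by, wild type mice it was 1.34 and -0.04.

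The other 8 genes of the 22 are not chaperones of these lists. Nle1, a ribosome assembly factor, had a log2 fold change of 2.72 in wild type and 0.27 in Hsf1-/- mice (difference 2.45 ± 0.31, adjusted p = 0.0010). Its start lies 2139 bases from that of Unc45b, on the opposite strand (mm9). Tmc4 and Mboat7, an acyltransferase for phosphatidylinositol, are neighbours 266 bases apart on the same strand and differed by 4.34 and 1.40. The rest were Scamp3 and Tubgcp4, of vesicle traffic and microtubule nucleation, the myo-inositol transporter Slc5a3, the oxidase Aox1 and Cnpy4. Apart from Tmc4, these 8 genes lie outside the rule by which genes were named. With 1 of the 8 mice left out, between 10 and 16 genes were called for the difference (10 without wild type control replicate 1). Hspa1a, Hspa1b, Hsp90aa1, Dnaja1, Bag3, Hspd1, Stip1, Hsph1, Unc45b and Nle1 were called in each of the 8 fits, and Dnaja4, Hspe1, Tmc4, Aox1 and Cnpy4 in 0 of them.

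In the glucocorticoid list 0 of the 30 genes were called for the difference by edgeR. An unadjusted p below 0.05 was reached by 9 of them and by 511 of all 13754 genes tested. All 16 that rose in wild type mice had a positive log2 fold change in Hsf1-/- mice, where their median was 1.14 against 2.72. Those 16 were chosen by their wild type values, and over all 30 the medians were 0.98 in Hsf1-/- and 1.96 in wild type mice. In Hsf1-/- mice on their own 0 of the 30 were called. For Ddit4 the difference was 3.10 ± 1.16 and for Mt2 1.57 ± 1.24. Nr4a3 (-0.71 ± 0.783) and Ppargc1a (-1.08 ± 0.554) had the larger fitted change in Hsf1-/- mice, and neither difference was called. Ppargc1a, which is outside the glucocorticoid list, was called in Hsf1-/- mice on their own (log2 fold change 3.12, adjusted p = 0.016). Among the 38 regulators of fuel use Ucp3 had the smallest adjusted p for the difference, with a log2 fold change of 3.15 in wild type and 0.18 in Hsf1-/- mice (difference 2.97 ± 0.605, adjusted p = 0.081). A missed threshold does not show that the genotypes respond alike.

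**Figure D4:**
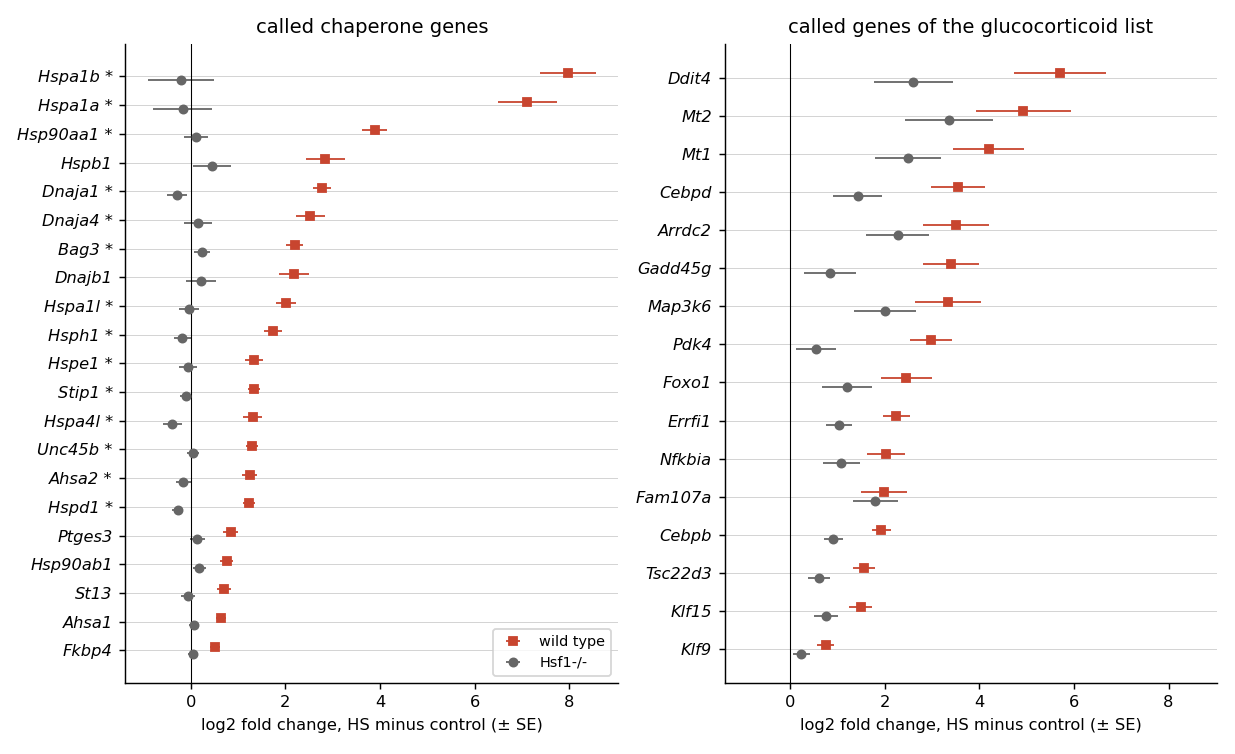
Log2 fold change of HS over control with its standard error in wild type (squares) and Hsf1-/- mice (circles) for the 21 called chaperone genes (left) and the 16 called genes of the glucocorticoid list (right). A star marks the genes whose difference between genotypes was called, 14 on the left and 0 on the right.

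In R6/2 mice of the same age, 10 genes were called for the difference (0.0727%), all with the larger rise in wild type mice, and 7 of them are chaperone genes. Dnaja4, for example, had 239 and 185 CPM in the R6/2 control mice and 157 and 210 CPM after HS, a log2 difference of 2.74 ± 0.426 (adjusted p = 0.012). Some chaperone genes did rise in R6/2 mice. On their own these mice had log2 fold changes of 4.385 for Hspa1b, 4.149 for Hspa1a and 1.652 for Hsp90aa1. All 3 were called, with adjusted p of 0.0011, 0.0043 and 0.010. No other gene of the chaperone lists was called in R6/2 mice on their own. Of all 13754 genes tested, 669 had an unadjusted p below 0.05 for the difference from R6/2 mice, a share smaller than 0.05. By edgeR every call for this difference was lost without wild type control replicate 1 or R6/2 control replicate 1. Without R6/2 HS replicate 2 more genes were called.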

How the data were processed

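RNA of quadriceps femoris muscle was isolated with TRIZOL and selected for polyA, and strand-specific libraries were sequenced as paired ends. The authors mapped the reads to mm9, with Bowtie and DESeq2 named in the submitters' processing notes, and deposited raw counts per gene for 24 libraries. The counting program, its use of strand and the annotation are not given in the sources used here. Of 18669 genes, 18594 were matched to a symbol. The 4 wild type libraries of the HS experiment held 24062246 to 33192334 counts, which limits the precision of genes with few counts.

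Genes reaching 2 counts in 10 or more libraries were kept, scaled with TMM and fitted as 12 groups with edgeR 4.0.16 (quasi-likelihood test, 12 residual degrees of freedom, Benjamini-Hochberg adjustment, threshold 0.05; limma 3.58.1, R 4.3.3). Differences between genotypes were tested as interactions. DESeq2 1.42.0, other scalings, filters and sample sets, a block for the replicate number and leaving out each mouse were alternatives. On simulated data 148 of 200 changed genes were recovered for the wild type comparison (55 of 100 at a log2 change of 1, 93 of 100 at 2), with 4 false calls among 13754 genes, and 93 of 200 for the difference from Hsf1-/- mice, with 2 false calls. The counts were drawn from the fitted average levels and dispersions, and changes were planted only in genes above 1 CPM on average. Recovery in lower genes was not tested. The labels do not say that the mice of a group came from separate litters or days, so p-values measure the spread between these samples. The chi-square per degree of freedom between the 2 wild type mice of a group was 24.5 (control) and 30.8 (HS). The 2 libraries of each of these groups were thus not repeats of each other. Other pairs of libraries were not checked in this way.

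Genes were named by a rule: of called genes with a mean of at least 1 CPM and no overlap between groups, the 15 largest rises and 15 largest falls and up to 4 per list, plus a panel of stress and housekeeping genes. Genes outside it are marked. The comparison, gene lists and panel were chosen with earlier results of these data known. Near-identical copies of the named transcripts (50% or more of the length, with up to 2% divergence) were searched for in mm9 with minimap2 2.31. Promoter sequences are from RefSeq (GRCm38.p6). Besides Hspa1a, Hspa1l, Dnaja4 and Ahsa2, the genes Tubgcp4, Cebpb, Gadd45a, Dbp, Tmc4, Foxo1 and Scamp3 overlap a gene on the opposite strand over 25.4%, 20.7%, 19.1%, 16.7%, 15.4%, 12.1% and 11.1% of their exon bases, and counts of all 11 are uncertain to that extent. One gene that the naming rule selects is not reported here.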

Additional observations from a re-analysis of the deposited data

Results flagged for a closer look

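The HS responses of wild type and Hsf1-/- mice differed, by the test of the difference (edgeR's quasi-likelihood test of the interaction), in 13 of the named genes. The log2 difference, wild type minus Hsf1-/-, was 8.18 for Hspa1b, 7.28 for Hspa1a, 4.34 for Tmc4, 3.79 for Hsp90aa1, 3.08 for Dnaja1, 2.38 for Dnaja4, 2.05 for Hspa1l, 1.96 for Bag3, 1.51 for Hspd1, 1.44 for Stip1, 1.41 for Hspe1, 1.41 for Ahsa2 and 1.25 for Unc45b. The Hsf1-/- mice were also younger and differed in Y-linked transcripts, which cannot be told apart from the genotype.

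The responses of wild type and R6/2 mice differed in 7 of the named genes. The log2 difference, wild type minus R6/2, was 2.74 for Dnaja4, 2.55 for Dnajb1, 2.24 for Hsp90aa1, 2.04 for Hspa1l, 1.79 for Dnaja1, 1.70 for Bag3 and 1.06 for Hspd1.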

How the results depend on the processing

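The count of genes called after HS in wild type mice was 283, and stayed between 280 and 316 with the replicate block (280), the 12 libraries of the HS experiment, filterByExpr or no filter, and scaling by RLE or total counts. It was 598 with only the groups compared, 542 with DESeq2 and 825 with DESeq2 on the 4 libraries, the last added after the data had been seen. It ran from 40 to 123 with 1 mouse left out. The difference from Hsf1-/- mice gave 22 genes, 44 with only the groups compared, 40 with DESeq2, 20 with the replicate block and 10 to 16 with 1 mouse left out. The difference from R6/2 mice gave 10 genes, 0 with only the groups compared (572 at an unadjusted p below 0.05), 34 with DESeq2, 11 with the replicate block and 0 to 90 with 1 mouse left out (514 and 421 unadjusted in the 2 fits that gave 0). The cause of these shifts was not tested. Replicate numbers are shared by the groups, but the labels do not pair the mice (r = -0.197 between the deviations of the control and HS mice numbered 1). Of 78 named genes called, 58 lost the call in at least 1 fit that left out a mouse, and 0 changed direction under any alternative run. Changes of low genes and small falls are limited by depth and by 2 mice per group.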

Other observations

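Several called genes lay side by side in the genome (mm9). Of the 283 called genes, 15 pairs were neighbours within 10 kb of each other or overlapped, and 14 of these pairs moved in the same direction. This was not tested against chance. As 219 of the 283 called genes rose, a shared direction is common among called genes wherever they lie. The chaperonin genes Hspd1 and Hspe1 overlap head to head by 112 bases on chromosome 1 and had log2 fold changes of 1.24 and 1.34. Nle1 and Unc45b are divergent genes on chromosome 11 (2.72 and 1.30), as are the co-chaperone gene St13 and the peptidase gene Xpnpep3 on chromosome 15, 61 bases apart (0.70 and 0.80), and Cep57l1 and Sesn1 on chromosome 10, 704 bases apart (1.13 and 1.65). Stard3, a cholesterol transporter, and Pnmt lie 5338 bases apart on the same strand of chromosome 11 (1.04 and 4.29). In the pair that moved in opposite directions, Ifi211 rose by 1.86 and Ifi203 fell by 1.27. Genes of these pairs outside the naming rule were chosen after their values were seen, and reads of overlapping genes may have been shared.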
